A study of Mus musculus with 6 samples.

Results

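Pth, Nts, Sval1, Dclk1, Pde1a and Ermn are 6 of the 17097 mouse genes measured here in cultured CD4 T cells, and 14 of the 45141 probe sets on the array are annotated to them. They were chosen from these same measurements, because their signal was high in wells coated with B7-2 and low in the other groups of wells. Their differences between the groups are therefore given as a description, with no test. By the size of the difference between B7-2 wells and anti-CD3 wells, Pth ranked 1 of 17097 genes, Nts 5, Dclk1 6, Sval1 7, Pde1a 9 and Ermn 10. Ermn, the last of them, was 6.61-fold higher, and the next gene in that order, Pdpn, was 6.45-fold higher.

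These genes are best known from tissues other than lymphocytes. Pth encodes parathyroid hormone, the peptide by which the parathyroid glands raise blood calcium, and Nts encodes the precursor of neurotensin, a peptide of brain and gut. Both are made as longer precursors that are cut by proteases on their way out of the cell. Dclk1 is a kinase with doublecortin domains that bind microtubules, known from neurons and from tuft cells of the gut. Pde1a is a phosphodiesterase that breaks down cyclic AMP and cyclic GMP when calcium and calmodulin are bound. Ermn encodes ermin, an actin-binding protein of myelinating oligodendrocytes, and Sval1 is named for its likeness to a seminal vesicle antigen. B7-2 (CD86) is a ligand of CD28, the costimulatory receptor that acts together with the T cell receptor on factors such as NFAT, AP-1 and NF-kB.

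The cells were described as CD4+CD25- T cells of female C57BL/6 mice, a selection meant to leave out cells that already carried CD25. The BTNL2 wells were coated with anti-CD3 at 2 µg/ml, rB7-2.Fc at 3 µg/ml and rBTNL2.Fc (BTNL2 is a butyrophilin-like protein, distantly related to B7-2) at 11 µg/ml. The B7-2 wells had anti-CD3 and rB7-2.Fc at the same concentrations with control IgG, and the anti-CD3 wells had anti-CD3 with control IgG. TGF-beta (0.36 ng/ml) and IL-2 (10 ng/ml) were present in every well during the 4 days of culture, and each group has 2 arrays from duplicate cultures. One label names spleen as the source, and another names spleen and lymph nodes. Whether the duplicates stem from different animals is not stated, so the p-values below measure only the spread between these cultures. The BTNL2 wells also contained B7-2, so the high signal was found with B7-2 alone among the ligands added to anti-CD3 and not wherever B7-2 was present.

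Median intensity was 18.4 to 18.8 on the 6 arrays, and the brightest of 23 nonspecific control probe sets read 5.02 to 5.99. The 3' to 5' signal ratio of Gapdh, a measure of RNA integrity, was 1.40 and 1.43 on the BTNL2 arrays, 1.28 and 1.33 on the B7-2 arrays, and 1.37 and 1.27 on the anti-CD3 arrays. The number of arrays limits the precision of every value. In cultures of many cells, a change in the share of cells that use a gene and a change in RNA per cell cannot be told apart.

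RefSeq start sites of all 6 genes were matched, with 10 windows of 250 bases before to 50 bases after a start. The windows below are shown because they share letters with each other or hold the AP-1 letters, and the 6 genes were high in the same wells. Runs common to windows of 2 different genes were sought only with each window read along its gene's strand. Matches between opposite strands were not sought. The longest run found was TGACATCATCCT, 12 bases, in Pth and Nts. Its first 8 bases, TGACATCA, also occur in window 4 of Pde1a. Capitals mark TGACATCA, the AP-1 letters TGANTCA and the CRE core TGACG, on either strand.
Pth (GRCm38.p6, chr7:113388524-113388823, minus strand): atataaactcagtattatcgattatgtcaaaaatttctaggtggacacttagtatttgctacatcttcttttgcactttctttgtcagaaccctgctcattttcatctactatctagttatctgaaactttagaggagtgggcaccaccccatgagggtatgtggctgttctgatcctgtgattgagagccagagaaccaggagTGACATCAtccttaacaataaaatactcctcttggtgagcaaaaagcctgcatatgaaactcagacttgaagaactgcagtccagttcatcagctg
Nts (GRCm38.p6, chr10:102490369-102490668, minus strand): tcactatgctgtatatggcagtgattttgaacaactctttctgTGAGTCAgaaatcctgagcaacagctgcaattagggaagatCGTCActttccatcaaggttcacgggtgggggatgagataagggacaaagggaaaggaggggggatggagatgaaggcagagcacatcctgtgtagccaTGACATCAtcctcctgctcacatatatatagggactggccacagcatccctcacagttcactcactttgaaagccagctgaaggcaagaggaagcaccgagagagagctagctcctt
Pde1a, window 4 of the gene (GRCm38.p6, chr2:79908350-79908649, minus strand): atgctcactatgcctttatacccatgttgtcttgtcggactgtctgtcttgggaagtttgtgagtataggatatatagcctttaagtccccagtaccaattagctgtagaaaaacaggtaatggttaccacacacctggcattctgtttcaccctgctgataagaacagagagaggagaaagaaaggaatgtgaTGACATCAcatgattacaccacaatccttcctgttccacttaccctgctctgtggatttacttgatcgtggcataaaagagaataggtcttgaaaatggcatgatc
Dclk1, window 2 of the gene (GRCm38.p6, chr3:55461478-55461777, plus strand): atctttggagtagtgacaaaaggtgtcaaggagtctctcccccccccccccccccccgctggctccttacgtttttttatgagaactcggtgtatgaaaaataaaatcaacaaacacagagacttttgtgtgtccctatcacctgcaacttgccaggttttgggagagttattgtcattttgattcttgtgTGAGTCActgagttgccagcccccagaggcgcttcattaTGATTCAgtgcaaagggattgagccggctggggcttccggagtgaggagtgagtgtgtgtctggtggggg

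The run TGACATCA lies 46 to 39 bases before the start in Pth, 67 to 60 before it in Nts and 56 to 49 before it in window 4 of Pde1a. Pde1a and Dclk1 have more than 1 window each, and which start their probe sets report on was not determined. It was picked after the sequences had been compared, and 3.62% of the 32851 mouse start windows hold it on either strand. The 12-base run is held by 7 of the 32851 windows (0.0213%), but it was picked as the longest match, so this share is no test of it. The next longest run was 11 bases, in Dclk1 window 1 and Ermn, and other pairs shared 10 bases. The AP-1 letters TGANTCA occur once in Nts and at 2 places in window 2 of Dclk1, against 7.81% of all windows with at least 1. The CRE core TGACG occurs on the opposite strand in Nts, window 3 of Pde1a and Ermn, against 20.8% of all windows. The NFAT core GGAAAA occurs in Ermn and window 1 of Pde1a, against 23.4% of all windows. The 10-letter NF-kB motif is in 1.47% of all windows and in none of the 10. The TATA letters TATAAA are in Pth and in windows 2 and 4 of Pde1a, against 13.6% of all windows. In Pth and window 4 of Pde1a they lie near the far upstream end of the window, away from the start. Whether any of them acts as a TATA box was not tested. The Sval1 window holds none of the letters searched. All motif searches covered both strands, but the search for shared runs covered only the strand of each gene. TGACATCA overlaps neither the AP-1 nor the CRE letters as spelled here.

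The hormone gene Pth had an intensity of 11.3 and 16.6 in the BTNL2 wells, 481 and 573 in the B7-2 wells, and 37.2 and 27.9 in the anti-CD3 wells. No array of one group overlapped those of another: the B7-2 wells were highest, the anti-CD3 wells intermediate and the BTNL2 wells lowest. The BTNL2 wells averaged 13.9 ± 3.71, the B7-2 wells 527 ± 65.7 and the anti-CD3 wells 32.5 ± 6.57 (SD, n = 2 each). Pth was 16.3-fold higher in B7-2 than in anti-CD3 wells, and its log2 difference between BTNL2 and B7-2 wells was -5.26, a 38.3-fold lower signal. The lower B7-2 array was still 12.9 times the highest of the other 4 arrays.

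**Figure D1:**
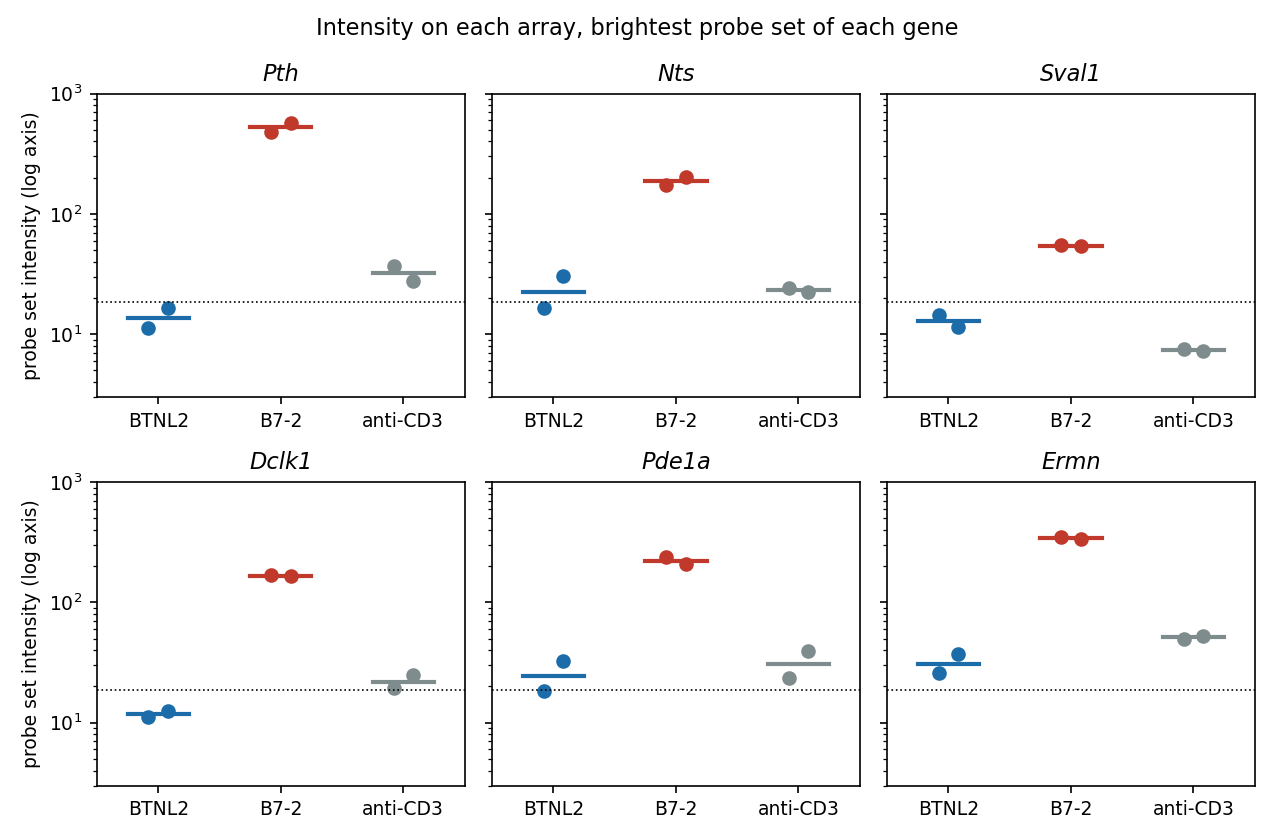
Probe set intensity on a log axis for the brightest probe set of each of the 6 genes, with 1 point per array, a bar at the geometric mean of each group and a dotted line at the median intensity of an array. Both B7-2 arrays lie above all 4 other arrays in every panel, and the B7-2 mean of Pth, 527, is far above its BTNL2 mean of 13.9 and its anti-CD3 mean of 32.5.

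Nts, the neurotensin gene, read 16.6 and 30.2 in the BTNL2 wells, 175 and 203 in the B7-2 wells, and 24.1 and 22.2 in the anti-CD3 wells. The B7-2 arrays stood apart, and the BTNL2 arrays lay on either side of both anti-CD3 arrays. The means were 23.4 ± 9.63 in BTNL2, 189 ± 20.1 in B7-2 and 23.2 ± 1.32 in anti-CD3 wells (SD, n = 2 each). Nts was 8.13-fold higher in B7-2 than in anti-CD3 wells, and its log2 difference between BTNL2 and B7-2 wells was -3.07. Its log2 difference between BTNL2 and anti-CD3 wells was -0.05, and it was 0.38 without the first BTNL2 array and 0.01 without the first anti-CD3 array.

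Sval1 read 14.4 and 11.5 in the BTNL2 wells, 54.9 and 53.8 in the B7-2 wells, and 7.48 and 7.21 in the anti-CD3 wells. It was the only one of the 6 whose BTNL2 arrays both lay above the anti-CD3 arrays, by a log2 difference of 0.81. The B7-2 wells were 7.40-fold above the anti-CD3 wells and 4.23-fold above the BTNL2 wells. The anti-CD3 values were close to the brightest nonspecific control, so the fold rests on a signal near background: with 16 added to every intensity before the log, the log2 difference between B7-2 and anti-CD3 wells was 1.59 in place of 2.89, that between BTNL2 and B7-2 wells -1.28 in place of -2.08, and that between BTNL2 and anti-CD3 wells 0.31 in place of 0.81.

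Dclk1 is represented by 8 probe sets. The brightest read 11.1 and 12.5 in the BTNL2 wells, 169 and 165 in the B7-2 wells, and 19.4 and 24.9 in the anti-CD3 wells. The groups did not overlap, in the same order as for Pth. On this probe set the B7-2 wells were 7.62-fold above the anti-CD3 wells and 14.2-fold above the BTNL2 wells. In 7 of the 8 probe sets both B7-2 arrays lay above the other 4 arrays, where 13.1% of all 45037 probe sets other than controls did so. In the 5 brightest of these, the B7-2 wells were 2.72-fold to 7.62-fold above the anti-CD3 wells. The sixth in order of mean signal read 12.7 and 11.8 in the BTNL2 wells, 14 and 11 in the B7-2 wells, and 10.5 and 9.89 in the anti-CD3 wells, and its groups overlapped. The seventh, at 14.6 and 15.9 in B7-2 wells, read 3.73 and 3.62 in BTNL2 wells and 4.20 and 4.59 in anti-CD3 wells, so that only its B7-2 arrays were above the brightest nonspecific control. The eighth was alike in this, at 6.65 and 12.2 in B7-2 wells, with 4.37 and 4.46 in BTNL2 wells and 3.57 and 4.49 in anti-CD3 wells. No fold is given for these 2. With the log2 values of all 8 averaged, the log2 difference was 1.75 between B7-2 and anti-CD3 wells and -1.97 between BTNL2 and B7-2 wells, against 2.93 and -3.83 on the brightest.

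**Figure D2:**
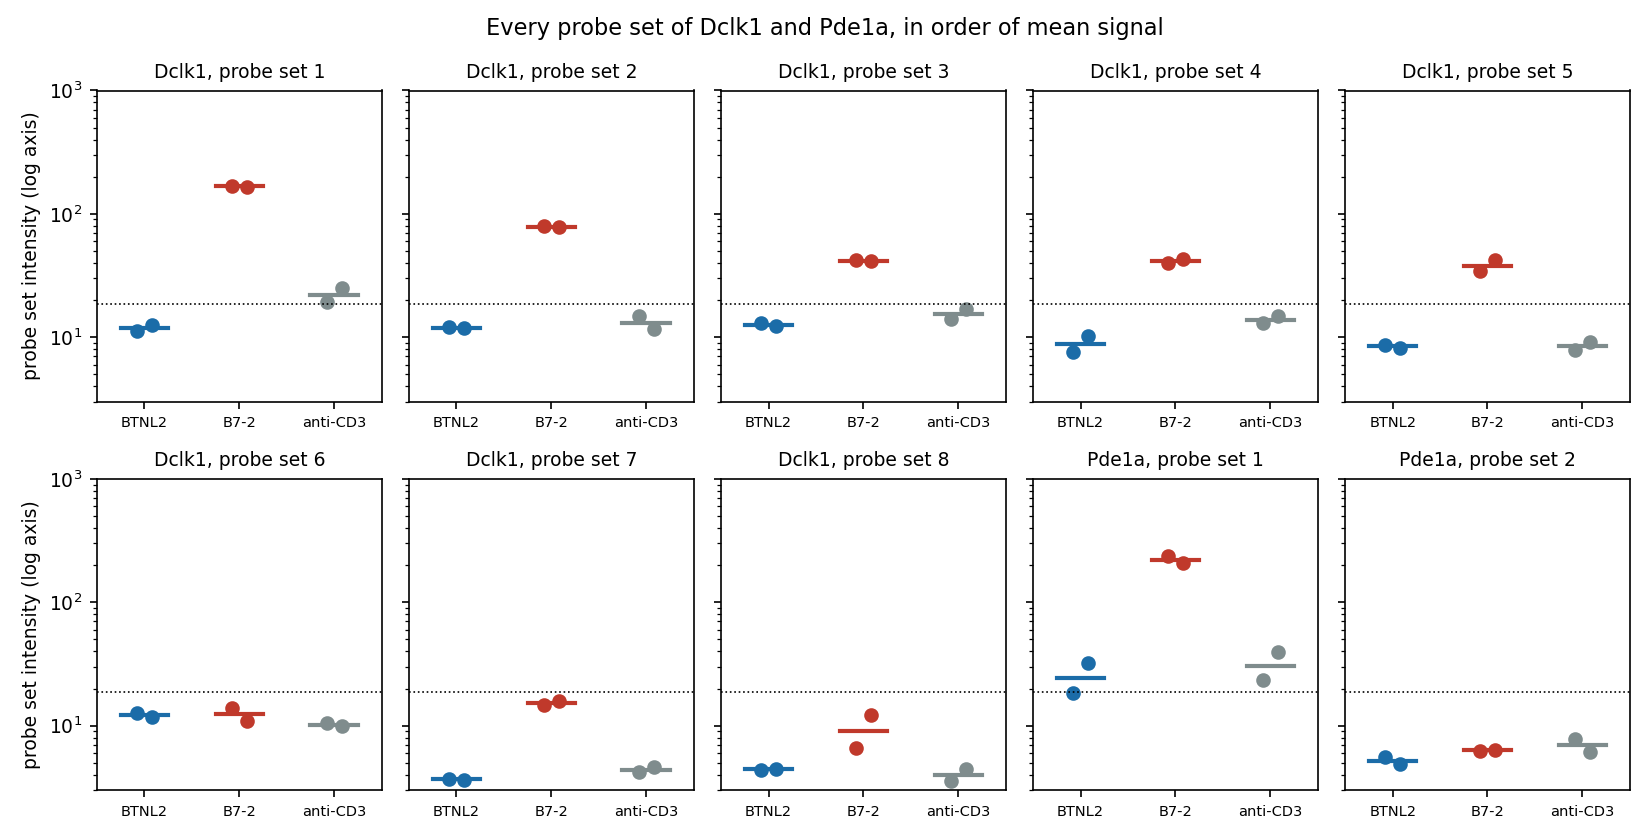
Probe set intensity on a log axis for the 8 probe sets of Dclk1 and both probe sets of Pde1a, ordered within each gene by mean signal, with 1 point per array, a bar at the group's geometric mean and a dotted line at the median of an array. Of the Dclk1 probe sets, 7 show both B7-2 arrays above the rest, while the sixth of Dclk1 and the second of Pde1a do not.

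Pde1a, the calcium-dependent phosphodiesterase gene, has 2 probe sets that differed. The brighter read 18.4 and 32.4 in the BTNL2 wells, 236 and 208 in the B7-2 wells, and 23.6 and 39.5 in the anti-CD3 wells. The B7-2 arrays stood apart, and the BTNL2 and anti-CD3 arrays overlapped. The B7-2 wells were 7.26-fold above the anti-CD3 wells and 9.07-fold above the BTNL2 wells. The other probe set read 5.6 and 4.85 in the BTNL2 wells, 6.29 and 6.4 in the B7-2 wells, and 7.81 and 6.13 in the anti-CD3 wells, all close to the nonspecific controls and overlapping between B7-2 and anti-CD3 wells. With both probe sets averaged, the log2 difference between B7-2 and anti-CD3 wells was 1.37 in place of 2.86, and that between BTNL2 and B7-2 wells -1.73 in place of -3.18. Between BTNL2 and anti-CD3 wells the brighter probe set differed by -0.32 on the log2 scale, and by 0.08 without the first BTNL2 array and 0.05 without the second anti-CD3 array.

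Ermn, the ermin gene, read 25.9 and 37.2 in the BTNL2 wells, 346 and 333 in the B7-2 wells, and 50.1 and 52.8 in the anti-CD3 wells. The groups did not overlap, with the BTNL2 wells lowest. The means were 31.5 ± 7.95 in BTNL2, 340 ± 9.11 in B7-2 and 51.4 ± 1.92 in anti-CD3 wells (SD, n = 2 each). The B7-2 wells were 6.61-fold above the anti-CD3 wells and 10.9-fold above the BTNL2 wells. In the anti-CD3 wells, 64.7% and 65.3% of all probe sets read lower than Ermn. The shares there were 61.1% and 57% for Pth, 54.6% and 53.3% for Nts, 50.6% and 55.2% for the brightest Dclk1 and 54.2% and 61.8% for the brightest Pde1a probe set, against 22.2% and 21.3% for Sval1. By rank, 5 of the 6 were thus not among the dimmest probe sets in the anti-CD3 wells. Probe sets differ in how brightly they bind, so rank does not show whether a gene was in use. The receptor gene Pth1r, called in no comparison, read 20.8 and 20.4 in the same wells. Whether the 5 lay above background was not tested.

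Across the brightest probe sets, BTNL2 wells were thus not alike to anti-CD3 wells for every gene. Both BTNL2 arrays lay below both anti-CD3 arrays for 3 of the 6, Pth, Dclk1 and Ermn, with log2 differences of -1.23, -0.90 and -0.73. With 16 added to every intensity these were -0.70, -0.45 and -0.51, and with its probe sets averaged Dclk1 differed by -0.23. The dimmer Dclk1 probe sets did not all go the same way. On several, such as the next in brightness (12 and 11.8 in BTNL2, 14.8 and 11.6 in anti-CD3 wells), these arrays overlapped. On several others both BTNL2 arrays again lay below, such as at 7.62 and 10.1 against 13.1 and 14.8 in anti-CD3 wells. On another both BTNL2 arrays lay above, at 12.7 and 11.8 against 10.5 and 9.89 in anti-CD3 wells. For Nts and Pde1a the arrays overlapped, and for Sval1 both BTNL2 arrays lay higher. The 3 comparisons share groups, so these differences are not independent of those given above.

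The combination was rare among all genes. Each gene was taken on its brightest probe set. Only 11 of 17097 genes (0.0643%) were at least 4-fold higher in B7-2 wells than in each of the other groups. All 6 genes are among them, as the way they were chosen implies. The other 5 were Il5, Pdpn, Stra6, Unc13b and Cth. With probe sets averaged, Dclk1 and Pde1a fell short of 4-fold, and so did Sval1 with 16 added to every intensity. Il5, the eosinophil growth factor gene of Th2 cells, read 21.9 and 37.3 in BTNL2 wells, 472 and 456 in B7-2 wells, and 28.9 and 33.7 in anti-CD3 wells. A gene typical of T cells thus showed the pattern as fully as the 6 did. Pdpn, which encodes the membrane mucin podoplanin, read 36.6 and 36.0 in BTNL2 wells, 433 and 365 in B7-2 wells, and 58.1 and 65.3 in anti-CD3 wells. Cth, an enzyme gene of cysteine synthesis, read 12.0 and 7.36 in BTNL2 wells, 148 and 156 in B7-2 wells, and 31.1 and 34.4 in anti-CD3 wells. Stra6, a retinol transporter gene, was 5.54-fold and Unc13b, a vesicle priming gene, 4.71-fold higher in B7-2 than in anti-CD3 wells. They were 5.23-fold and 5.51-fold higher in B7-2 than in BTNL2 wells. The next in order were Nkain1, Inhba (an activin subunit gene, at a mean of 10.7 in BTNL2, 346 in B7-2 and 89.5 in anti-CD3 wells), Ugt1a6a, Pparg (a lipid-sensing nuclear receptor gene) and Ugt1a9. Ugt1a6a and Ugt1a9 belong to 1 locus and share exons, so they are not separate evidence.

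**Figure D3:**
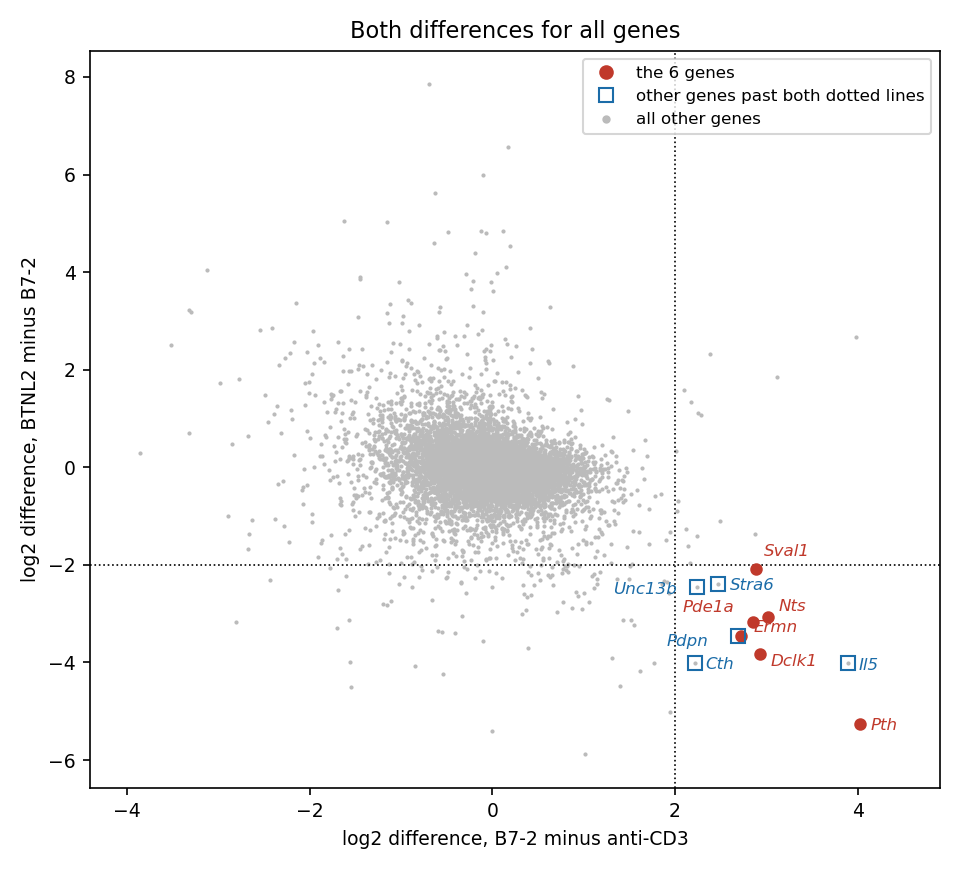
Log2 difference of BTNL2 minus B7-2 wells (vertical) against B7-2 minus anti-CD3 wells (horizontal) for all 17097 genes, 1 point each, with dotted lines at 4-fold. The 6 genes (red) and 5 others (blue squares) are the 11 points at the lower right, and Pth lies farthest to the right; both axes use the B7-2 arrays, so the slope of the cloud is no result.

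The genes most like each of the 6 were sought by Pearson correlation of log2 values over the 6 arrays, among 529 genes whose arrays spanned at least 2 on the log2 scale. With 3 groups of 2 arrays, such a correlation mostly records which group stands apart. The 6 correlated with each other at r = 0.866 to 0.996, and the lowest values were those of Sval1. Closest to Pth were Epn2 (r = 0.998), Ugt1a9 (0.997) and Pparg (0.993). Closest to Nts were Il5 (r = 0.996), Nkain1 (0.995) and Stra6 (0.993). Closest to Sval1 were Perp (r = 0.988), Il13 (0.988) and Olr1 (0.970). Perp read 260 and 284 in BTNL2 wells, 711 and 659 in B7-2 wells. Closest to Dclk1 were Pdpn (r = 0.998), Epn2 (0.990) and Il1rn (0.990). Closest to Pde1a were Il5 (r = 0.990), Stra6 (0.986) and Ugt1a6a (0.977), and closest to Ermn were Ugt1a9 (0.997), Ugt1a6a (0.996) and Epn2 (0.996). The Th2 cytokine genes Il5 and Il13 are thus among the nearest by this measure for 3 of the 6.

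Receptors, relatives and partners of the 6 were not used in choosing them, and their differences were tested with limma over all 17097 genes at an adjusted p under 0.05. Of 91 listed genes, 80 had a probe set of their own. In BTNL2 against B7-2 wells 9 of the 80 rose and 15 fell, where 9.52% and 10.8% of all genes did, and the median log2 change was -0.04 against -0.01 for all genes. In B7-2 against anti-CD3 wells 13 rose and 8 fell, where 11.2% and 13.3% of all genes did, and the median was 0.02 against -0.00484. In BTNL2 against anti-CD3 wells 10 rose and 14 fell, where 14.2% and 16.2% of all genes did (30.4% in either direction), with a median of 0.04 against -0.00456. The 24 calls of the BTNL2 against B7-2 comparison were 12 when the first BTNL2 array was left out and 14 when the first B7-2 array was. The 21 of B7-2 against anti-CD3 were 12 without the first anti-CD3 array, and the 24 of BTNL2 against anti-CD3 were 15 without either anti-CD3 array.

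The measured receptor genes of the peptides stayed near or below the array median. Pth2r and Pthlh, also listed, were not analysed here. Pth1r, the receptor gene of parathyroid hormone, read 21.5 and 19.8 in BTNL2, 22.7 and 19.4 in B7-2, and 20.8 and 20.4 in anti-CD3 wells. Ntsr1 and Ntsr2, the neurotensin receptor genes, read 5.62 to 6.18 and 7.02 to 9.81 over all arrays. Sort1, the gene of the neurotensin-binding sorting receptor sortilin, read 14.5 to 23.8. None of these 4 passed the test in any comparison. In B7-2 against anti-CD3 wells 24.5% of all genes were called. Of 6 receptor and relative genes the only one called was Sorl1, a sorting receptor gene related to Sort1. It read 198 and 169 in BTNL2, 38.8 and 36.4 in B7-2, and 105 and 130 in anti-CD3 wells. Sorl1 thus ran opposite to the 6: it fell with B7-2 (log2 change -1.64 ± 0.13 SE, adjusted p = 0.000462) and was higher with BTNL2 than with B7-2 (2.29 ± 0.13, adjusted p = 6.62e-05). With its probe sets averaged these were -1.02 and 1.25.

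Of 15 genes of prohormone processing and secretory granules, 3 rose and 0 fell in B7-2 against anti-CD3 wells, where 11.2% and 13.3% of all genes did. The 3 were Furin, Scg2 and Pcsk1. Furin, the general proprotein convertase gene, rose (log2 change 0.74 ± 0.10, adjusted p = 0.00208). Scg2, a granule protein gene, read 11.5 and 11.2 in BTNL2, 22.1 and 23.3 in B7-2, and 13.4 and 15.6 in anti-CD3 wells. Scg2 rose with B7-2 (0.65 ± 0.10, adjusted p = 0.00464) and was lower with BTNL2 than with B7-2 (-0.996 ± 0.10, adjusted p = 0.000725). With 16 added to every intensity these were 0.34 and -0.50. Pcsk1, the neuroendocrine convertase gene, was called with B7-2 (0.45 ± 0.13, adjusted p = 0.0425), but at signals of 11.5 to 18.1, and its call was lost without any 1 of the 4 arrays compared (adjusted p = 0.14, 0.15, 0.163 and 0.101, leaving out in turn the first and second anti-CD3 and the first and second B7-2 array) and with a replicate block (adjusted p = 0.0556). Cpe, the carboxypeptidase gene that trims such peptides, was not called with B7-2 and was higher with BTNL2 than with B7-2 (2.81 ± 0.24, adjusted p = 0.000324), at 196 and 115 in BTNL2 and 19 and 24.2 in B7-2 wells. The granule marker Chga read 18.7 to 24.9 on all arrays and was not called.

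Of 5 genes of peptidases that degrade neurotensin, 3 rose and 0 fell with B7-2, where 11.2% and 13.3% of all genes did. Thop1 rose by 1.32 ± 0.09 (adjusted p = 0.000326) and Nln, the neurolysin gene, by 1.36 ± 0.10 (adjusted p = 0.000394). Nln read 221 and 224 in BTNL2, 176 and 206 in B7-2, and 75.3 and 73.5 in anti-CD3 wells, so it stayed high when BTNL2 was added, unlike Nts. Prep rose by 0.46 ± 0.10 (adjusted p = 0.014), and its call was lost without the second anti-CD3 array (adjusted p = 0.0856) and without the first B7-2 array (adjusted p = 0.0814). In BTNL2 against B7-2 wells Thop1 and Prep fell (-0.44 ± 0.09, adjusted p = 0.0171, and -0.44 ± 0.10, adjusted p = 0.0192). The Thop1 call was lost without any 1 of the 4 arrays compared (adjusted p of 0.08 and 0.0689 without the first and second B7-2 array, 0.0776 and 0.0561 without the first and second BTNL2 array). With its probe sets averaged, Thop1 differed by -0.21 between BTNL2 and B7-2 wells (adjusted p = 0.145) and by 0.76 between B7-2 and anti-CD3 wells (adjusted p = 0.0011). The Prep call was lost without the first B7-2 array (adjusted p = 0.109) or either BTNL2 array (adjusted p = 0.0832 and 0.0659).

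Measured relatives of Pde1a showed no called rise with B7-2. Of 13 cyclic nucleotide phosphodiesterase genes, 0 rose and 3 fell with B7-2, where 11.2% and 13.3% of all genes did. In BTNL2 against B7-2 wells 3 rose and 2 fell, where 9.52% and 10.8% of all genes did. Pde1b, the gene of the same calmodulin-dependent family, read 83.6 and 73.8 in BTNL2, 73.6 and 67.3 in B7-2, and 86.8 and 98.3 in anti-CD3 wells, a called fall with B7-2 (-0.39 ± 0.11, adjusted p = 0.0424). That call was lost without any 1 of the 4 arrays compared (adjusted p of 0.0691 and 0.201 without the first and second anti-CD3 array, 0.0811 and 0.178 without the first and second B7-2 array) and with a replicate block (0.0641). Pde1c read 17.8 to 23.7 and was not called. Pde3b fell with B7-2 (-0.78 ± 0.10, adjusted p = 0.00178) and was higher with BTNL2 than with B7-2 (0.77 ± 0.10, adjusted p = 0.00179). Pde4d also fell with B7-2 (-1.15 ± 0.15, adjusted p = 0.00235). It was called higher with BTNL2 than with B7-2 (0.56 ± 0.15, adjusted p = 0.0445), a call lost without the first or second B7-2 array (adjusted p = 0.105 and 0.163), without either anti-CD3 array or both (0.0754), and without the first BTNL2 array, where the log2 change was 0.32 (0.135). Pde4b was 1.38 ± 0.11 lower on the log2 scale in BTNL2 than in B7-2 wells (adjusted p = 0.000202) and Pde7a 0.74 ± 0.11 lower (adjusted p = 0.00318), both without a call between B7-2 and anti-CD3 wells.

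Relatives of Dclk1 were dim. Of 5 doublecortin-family genes 0 were called with B7-2 and 0 in BTNL2 against B7-2 wells, where 24.5% and 20.4% of all genes were. Dclk2 read 8 to 11.4 and Dclk3 10.4 to 13.3 over all arrays. Of 11 genes of calmodulin and its kinases, 1 rose and 2 fell with B7-2, where 11.2% and 13.3% of all genes did. Camkk2 rose by 0.55 ± 0.11 (adjusted p = 0.0114), and Camk2b (-0.65 ± 0.13, adjusted p = 0.0105) and Camk2d (-0.59 ± 0.13, adjusted p = 0.017) fell. The Camkk2 call was lost without the first anti-CD3 array (adjusted p = 0.0617) or either B7-2 array (0.055 and 0.0508), and the Camk2b call without either anti-CD3 array (0.0609 and 0.0507) or the second B7-2 array (0.0604). The Camk2d call was lost without the first anti-CD3 array (adjusted p = 0.101) or the first B7-2 array (0.0875) and with its probe sets averaged (0.332). In BTNL2 against B7-2 wells Camk1d was higher (0.73 ± 0.13, adjusted p = 0.00859) and Camk2g lower (-0.49 ± 0.11, adjusted p = 0.0184). Camk1d lost its call without the first B7-2 array (0.0522) or the first BTNL2 array (0.0531), and Camk2g without the first B7-2 array (0.102) or either BTNL2 array (0.0819 and 0.0661). Of 4 ERM-type linkers of actin to the membrane, 2 were called with B7-2, where 24.5% of all genes were. Nf2, at 232 and 260 in BTNL2, 415 and 386 in B7-2, and 273 and 268 in anti-CD3 wells, rose with B7-2 (0.57 ± 0.10, adjusted p = 0.00616) and was lower with BTNL2 (-0.70 ± 0.10, adjusted p = 0.00268). Ezr, the ezrin gene, was also called with B7-2 (0.34 ± 0.08, adjusted p = 0.0227), a call lost without any 1 of the 4 arrays compared (adjusted p of 0.0935 and 0.1 without the first and second anti-CD3 array, 0.099 and 0.0862 without the first and second B7-2 array). Sval2 and Pip were the listed relatives of Sval1 that were measured, and are its chromosomal neighbours. They read 4.01 to 4.43 and 4.33 to 5.59 on all arrays, at the level of the nonspecific controls. Sva, another measured neighbour of Sval1, read 3.90 to 5.14.

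**Figure D4:**
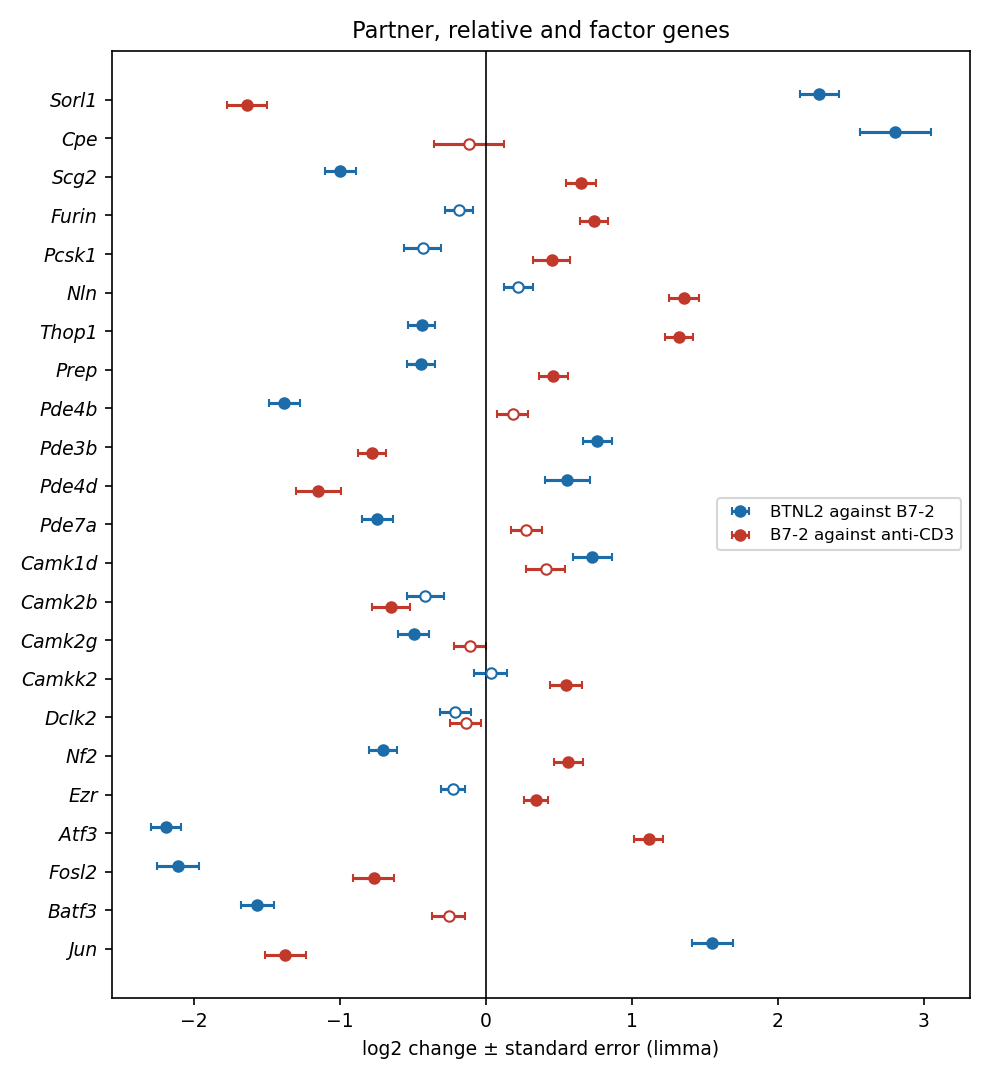
Log2 change with its standard error for 23 partner, relative and factor genes, BTNL2 against B7-2 wells in blue and B7-2 against anti-CD3 wells in red, filled where the limma adjusted p was under 0.05. Atf3, Scg2, Nf2, Thop1 and Prep show a called rise with B7-2 and a called fall with BTNL2, while Sorl1, Pde3b, Pde4d and Jun show the reverse; the BTNL2 calls of Thop1, Prep and Pde4d were lost when single arrays were left out.

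Factors that bind the letters searched in the start windows went both ways. Of 19 genes of AP-1, CREB, NFAT and NF-kB factors, 4 rose and 2 fell with B7-2, where 11.2% and 13.3% of all genes did. In BTNL2 against B7-2 wells 3 rose and 7 fell, where 9.52% and 10.8% of all genes did. Atf3, a stress-induced factor gene of the ATF and CREB family, read 305 and 277 in BTNL2, 1393 and 1269 in B7-2, and 589 and 638 in anti-CD3 wells. It rose with B7-2 (1.12 ± 0.10, adjusted p = 0.000627) and was lower with BTNL2 than with B7-2 (-2.19 ± 0.10, adjusted p = 2.88e-05), the same order as Pth, Dclk1 and Ermn. The AP-1 genes Fosl2 and Batf3 were also lower with BTNL2 than with B7-2 (-2.11 ± 0.14, adjusted p = 0.00011, and -1.57 ± 0.11, adjusted p = 0.000153), but neither rose with B7-2. Fosl1 and Junb, also AP-1 genes and named here after their values were seen, had both called directions of Atf3. The fourth called riser, the NF-kB gene Rel, likewise named after its values were seen, did not. Rel rose by 0.82 ± 0.24 with B7-2 (adjusted p = 0.0446) and was not called between BTNL2 and B7-2 wells (0.17 ± 0.24, adjusted p = 0.694). Fosl1, at only 8.53 to 28 over all arrays, differed by 1.27 ± 0.23 with B7-2 (adjusted p = 0.00721) and by -1.18 ± 0.23 between BTNL2 and B7-2 wells (adjusted p = 0.0112). With 16 added to every intensity these were 0.63 and -0.60, and with its probe sets averaged 0.59 and -0.64. The call between BTNL2 and B7-2 wells was lost without the second B7-2 array (adjusted p = 0.0589) or the first BTNL2 array (0.0699). Junb rose with B7-2 by 0.51 on the log2 scale (adjusted p = 0.0215), a call lost without either anti-CD3 array (0.112 and 0.071) or the first B7-2 array (0.113). Fosl2 fell with B7-2 (-0.77 ± 0.14, adjusted p = 0.00828), a call lost without the first anti-CD3 array (adjusted p = 0.0557). Jun ran opposite to the 6, with a fall with B7-2 (-1.38 ± 0.14, adjusted p = 0.000881) and a higher level with BTNL2 (1.55 ± 0.14, adjusted p = 0.000393).

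Markers of parathyroid cells, neurons, oligodendrocytes and enteroendocrine cells were listed, and 0 of those measured were called higher with B7-2, where 11.2% of all genes were. Markers of tuft cells and of seminal vesicle were not listed, and the parathyroid gene Gcm2 was not analysed here. Of the 3 measured parathyroid markers 0 were called in any comparison, with summed intensities of 40.1 to 42.8 in BTNL2, 49.2 to 51.7 in B7-2 and 40.9 to 43.1 in anti-CD3 wells. Within them Casr, the calcium-sensing receptor gene, read 11.8 and 16.4 in BTNL2, 17.9 and 26.9 in B7-2, and 13.6 and 13.4 in anti-CD3 wells (adjusted p = 0.0573 for B7-2 against anti-CD3). Of 11 neuronal markers 0 were called with B7-2, and their summed intensity was 167 to 173 in BTNL2, 160 to 176 in B7-2 and 169 to 176 in anti-CD3 wells. Of 11 oligodendrocyte markers only Cnp was called with B7-2, and it fell (-1.14 ± 0.10, adjusted p = 0.00059). The defining myelin genes Mog and Mag read 9.48 to 11.6 and 5.40 to 6.08 on all arrays. Of 7 enteroendocrine markers 0 were called in any comparison.

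T cell markers were bright in all wells. The 8 measured, among them Cd3d, Cd3e and Cd4, summed to 17038 to 17233 in BTNL2, 17983 to 18164 in B7-2 and 22302 to 22591 in anti-CD3 wells. Among these 8, 0 rose and 3 fell with B7-2, where 11.2% and 13.3% of all genes did. Markers of other lymphocytes were lowest in the B7-2 wells. Cd8a and Cd8b1 summed to 1016 to 1073 in BTNL2, 137 to 161 in B7-2 and 370 to 385 in anti-CD3 wells. The 5 B cell markers summed to 620 to 802, 307 to 333 and 596 to 637 in the same wells. Their part in the values of the 6 was not tested.

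The chromosomal neighbours of the 6 were tested in the same way. Of the 24 nearest measured neighbours, 2 on each side of each gene in the RefSeq order, 4 rose and 1 fell with B7-2, where 11.2% and 13.3% of all genes did. Their log2 changes ran from -0.84 to 1.03. In BTNL2 against B7-2 wells 0 rose and 4 fell, where 9.52% and 10.8% of all genes did, and the changes ran from -1.13 to 0.44. Btbd10, next to Pth on chromosome 7, read 139 and 131 in BTNL2, 231 and 243 in B7-2, and 119 and 114 in anti-CD3 wells. It rose with B7-2 (1.03 ± 0.09, adjusted p = 0.000532) and was lower with BTNL2 (-0.82 ± 0.09, adjusted p = 0.000878). Gpd2, next to Ermn on chromosome 2, showed the same directions (0.49 ± 0.12, adjusted p = 0.0227, and -1.13 ± 0.12, adjusted p = 0.0007). The first of these calls was lost without either anti-CD3 array (adjusted p = 0.126 and 0.0567) or the first B7-2 array (0.118). The neighbours of Nts on chromosome 10, Mgat4c, Rassf9, Alx1 and a Riken clone, read 5.09 to 8.47 on all arrays.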

How the data were processed

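The authors deposited linear intensity values, 1 per probe set, made with RMA per the submitters' processing notes, which corrects background, normalizes arrays to each other and summarises probes. Which software and which chip definition they used is not given in the sources used here, and per the labels' protocols 50 ng of RNA was amplified before labelling. Such normalization hides changes common to most transcripts. All values were log2 transformed. Of 45141 probe sets, 104 were controls, 28898 had 1 gene symbol in the platform annotation, 551 had several and 15588 none. Symbols were updated by Entrez identifier for 28689. Each gene was represented by its probe set with the largest mean of all arrays, which gave 17097 genes with no filter.

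Tests used limma 3.58.1 under R 4.3.3, with lmFit and then eBayes (all 6 arrays, 3 residual and 4.02 prior degrees of freedom), two-sided, with Benjamini-Hochberg adjustment over 17097 genes and 0.05 as threshold, and were tested on simulated data. Errors are standard errors unless given as SD. The 6 genes, the gene lists and the tests were chosen with earlier results of these data known. Genes named were all 6, up to 4 called genes per list with the smallest p, receptors and paralogs, the 3 most alike by correlation, the 10 nearest in pattern and 2 neighbours on each side. Camk2d, Casr, Cnp, Rel and the genes given only as dim were named as list members beside a count. Same-numbered arrays were not paired: the correlations of their deviations from group means were -0.03, -0.06 and -0.000967. Alternatives changed the variance prior, arrays fitted, dim genes, scaling, offset, probe sets, replicate block and each array in turn. Listed genes without a 1-symbol probe set were not analysed here.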

Additional observations from a re-analysis of the deposited data

How the results depend on the processing

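Leaving out each array in turn gave 12 to 24 called related genes for BTNL2 against B7-2 (24 with all arrays), 12 to 23 for B7-2 against anti-CD3 (21) and 15 to 25 for BTNL2 against anti-CD3 (24). Over all genes the counts were 2142 to 3015 (3482 with all arrays), 2454 to 4128 (4190) and 3726 to 4870 (5197). With fewer arrays the spread is estimated from fewer residuals, and a lone array is assumed to vary like the other groups. With the replicate block, the counts of related genes were 23, 19 and 21, and over all genes 3160, 3765 and 4827. The replicate numbers mark no stated batch, and the check of their deviations gave correlations near 0. The other settings kept all these counts within 1.5 times of the main values. For the 6 genes the log2 differences that involve B7-2 wells kept their sign under every alternative run. Between BTNL2 and anti-CD3 wells, leaving out 1 array gave -0.48 to 0.38 for Nts and -0.73 to 0.08 for Pde1a. Both change sign: Nts was 0.38 without the first BTNL2 and 0.01 (0.00817) without the first anti-CD3 array, and Pde1a 0.0847 without the first BTNL2 and 0.049 without the second anti-CD3 array. With 16 added before the log, the Pth differences were 3.49 for B7-2 minus anti-CD3 and -4.18 for BTNL2 minus B7-2, against 4.03 and -5.26. Signals of the 6 outside the B7-2 wells were often near the array median or the nonspecific controls, which limits how exactly a fold can be stated.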
